A study of Homo sapiens with 16 samples.

Results

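TNFRSF10A, TNFRSF10B, TNFRSF10C, TNFRSF10D, FAS and TNFRSF1A encode 6 cell-surface receptors of the TNF receptor superfamily. They were chosen by gene name, as the receptors for TRAIL, FAS ligand and TNF, out of 20612 genes in the table of expression values. TNFRSF10A (DR4), TNFRSF10B (DR5), FAS and TNFRSF1A (TNF receptor 1) carry an intracellular death domain and signal, whereas TNFRSF10C (DcR1) and TNFRSF10D (DcR2) bind TRAIL as decoys. All 6 were among the 12466 genes with a mean of at least 0.5 RPKM (a read density per gene, corrected for its length and the size of the library) over the 16 libraries, which were the genes tested. TNFRSF10C passed that minimum only through the p53+/+ libraries with Nutlin-3A or the combination: its mean was 1.40 RPKM over all libraries and 0.304 RPKM without those groups.

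The libraries were made from HCT116, a human colorectal cancer cell line with functional p53 (p53+/+), and from its isogenic p53-/- derivative, in which no functional p53 is made. Each genotype is a single line here, so the loss of p53 and other differences between the lines cannot be told apart. Cells of each genotype received DMSO as vehicle, 5 µM Nutlin-3A, 2.5 µM Entinostat, or both drugs together (the combination, for which the labels give no separate doses), each for 8 hours. Nutlin-3A blocks the binding of MDM2 to p53 and so stabilises p53, and Entinostat inhibits class I histone deacetylases. Each of the 8 groups had 2 replicates, and the labels do not say that they came from separate cultures, so the p-values measure the spread between these libraries, which may be technical.

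Of 8 colorectal epithelial markers 6 were tested, and VIL1 and LGALS4, markers of differentiated intestinal epithelium, stayed at or below 0.0969 RPKM in every library. Of 10 markers of blood, stromal, endothelial, liver and muscle cells 8 were in the table, of which CD68 and COL1A1 were tested. CD68 reached 7.33 RPKM and COL1A1 5.80 RPKM. PTPRC, CD3E, COL3A1 and PECAM1 stayed at or below 0.0434 RPKM, ALB at or below 0.168 RPKM and VWF at or below 0.238 RPKM. Between 45902800 and 55507300 alignments stood behind each library. In p53+/+ cells MDM2, the ubiquitin ligase of p53 and itself a p53 target, changed with Nutlin-3A by a log2 of 3.85 (adjusted p = 3.84e-09), from 20.4 and 20.0 RPKM to 328 and 268 RPKM. CDKN1A, the gene of the cyclin-dependent kinase inhibitor p21, changed by 3.54 (adjusted p = 5.68e-05).

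Binding of TRAIL to DR4 or DR5, or of FAS ligand to FAS, gathers the adaptor FADD and caspase-8 at the receptor's death domain, which starts apoptosis and which FLIP, the product of CFLAR, restrains. DcR1 lacks an intracellular signalling part and DcR2 has a shortened death domain, so both take up TRAIL without starting this cascade. TNF receptor 1 recruits TRADD and RIPK1 and mainly activates NF-kB, with cell death as an alternative outcome. FAS and the TRAIL receptors are known p53 targets, and the title of the series links p53 activation to a form of FLIP.

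**Figure D1:**
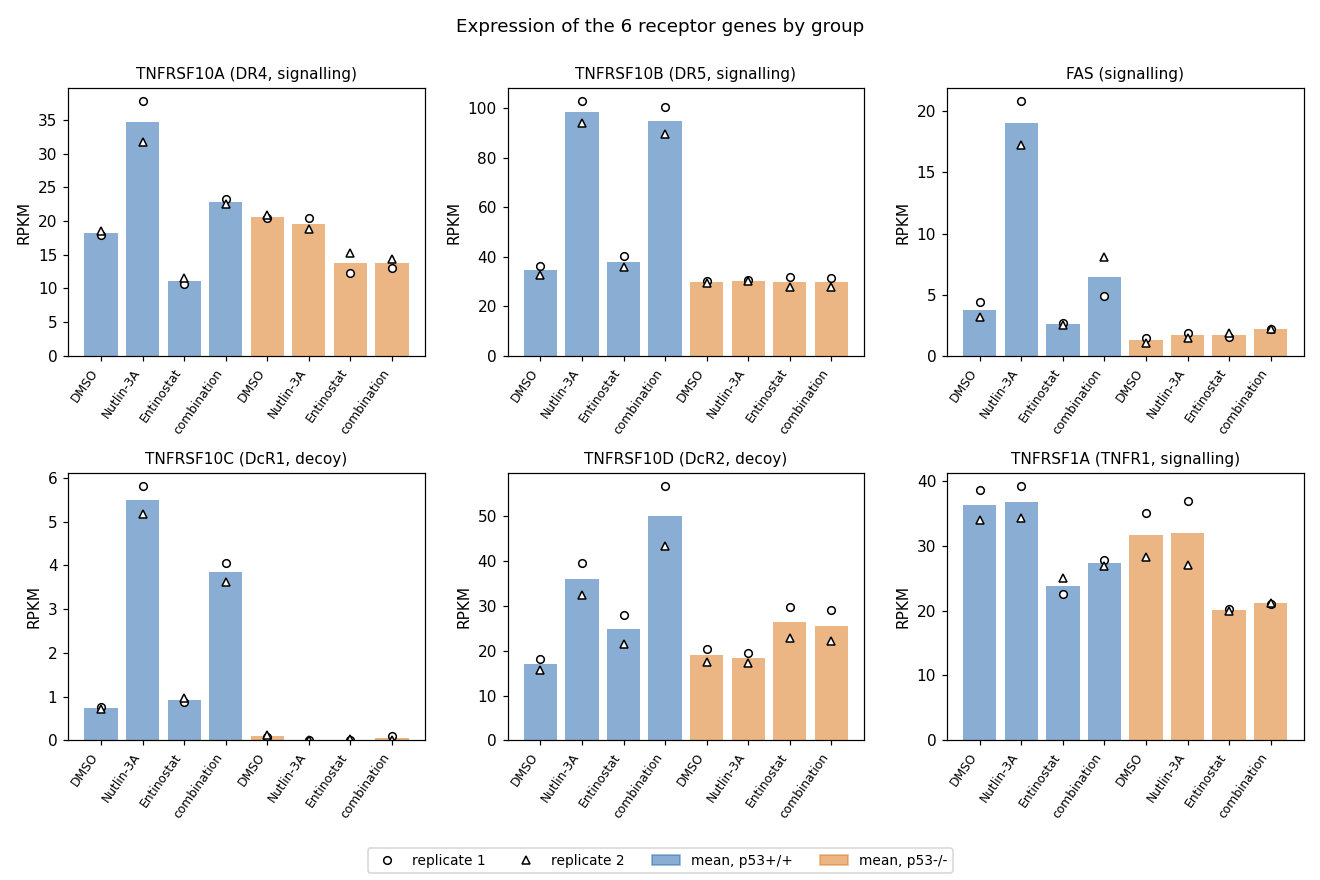
RPKM of each receptor gene in the 8 groups; bars are means of 2 replicates, circles replicate 1 and triangles replicate 2, with p53+/+ in blue and p53-/- in orange. TNFRSF10B stood at 89.7 RPKM or more in the p53+/+ libraries with Nutlin-3A or the combination and at 40.2 RPKM or less elsewhere, whereas within each genotype TNFRSF1A was lower in the groups with Entinostat than in those without.

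Nutlin-3A raised 5 of the 6 receptor genes in p53+/+ cells, all but TNFRSF1A, where limma called 17.4% of all tested genes at an adjusted p under 0.05 and 7.89% as higher. The median log2 change of the 6 was 1.28, against -0.02 for all tested genes. In p53-/- cells limma called none of the 6 with Nutlin-3A (0 of 12466 genes, 0%), and at an unadjusted p under 0.05 it counted 0 of the 6 and 440 of all tested genes. The difference between these responses, tested as an interaction, was called for the same 5 genes, where 6.78% of all genes were called and 3.49% in this direction. TNFRSF10C is 1 of the 5, although it passed the minimum for testing only through p53+/+ libraries with Nutlin-3A or the combination. By RPKM, TNFRSF10C was the lowest of the receptors in all 16 libraries and FAS the next lowest, whereas TNFRSF10B or TNFRSF1A was the highest.

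With Entinostat alone, TNFRSF10A and TNFRSF1A fell, in p53+/+ cells (2 of 6, where 27.5% of all genes were called and 12.4% were lower) and in p53-/- cells (2 of 6, where 28.2% were called and 13.3% were lower). With the replicate number fitted as a block, TNFRSF10D was called higher as well in both genotypes, which made 3 of 6 in each, where 44.6% and 45.5% of all genes were called. The Entinostat responses of the genotypes did not differ by limma's interaction test for any of the 6 (0% of all genes called); at an unadjusted p under 0.05, 2 of the 6 and 164 of all tested genes differed, the 2 being TNFRSF10C and FAS. The median log2 change of the 6 was -0.16 in p53+/+ cells and -0.10 in p53-/- cells, with all-gene medians of 0.01 and 0.02.

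With both drugs in p53+/+ cells all 6 passed the test against DMSO, 5 higher and TNFRSF1A lower, where 50% of all genes were called, 23.2% higher and 26.8% lower. Of these calls, those of TNFRSF10A, FAS and TNFRSF1A did not hold under every setting, as given below. Set against Nutlin-3A alone, the combination had 4 of the 6 lower, where 34.7% of all genes were called and 18.1% were lower: TNFRSF10A, TNFRSF10C, FAS and TNFRSF1A. Set against Entinostat alone, it had 5 of the 6 higher, where 14.8% were called and 5.16% were higher. In p53-/- cells the combination had 3 of the 6 called against DMSO, FAS higher and TNFRSF10A and TNFRSF1A lower, where 31.8% of all genes were called, 17.1% higher and 14.7% lower. A limma fit with the replicate number as a block also called TNFRSF10D higher there (adjusted p = 8.48e-04), where 48.8% of all genes were called. It did so against Nutlin-3A in p53+/+ cells too (adjusted p = 3.13e-04), where 52.4% were called. The combination's response differed between genotypes for 4 of the 6, the TRAIL receptors, where 5.78% of all genes were called and 1.97% in this direction. TNFRSF10C enters these counts with the limit on its minimum stated above. Additivity of the drugs on the log2 scale in p53+/+ cells was not departed from by any of the 6 in limma's test (0% of all genes called); at an unadjusted p under 0.05, 2 of the 6 and 587 of all genes did. Some of the other calls with the combination also fell short under some settings, as given below for each gene. These comparisons share DMSO and single-drug libraries, so their values are given side by side below and not as separate evidence.

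**Figure D2:**
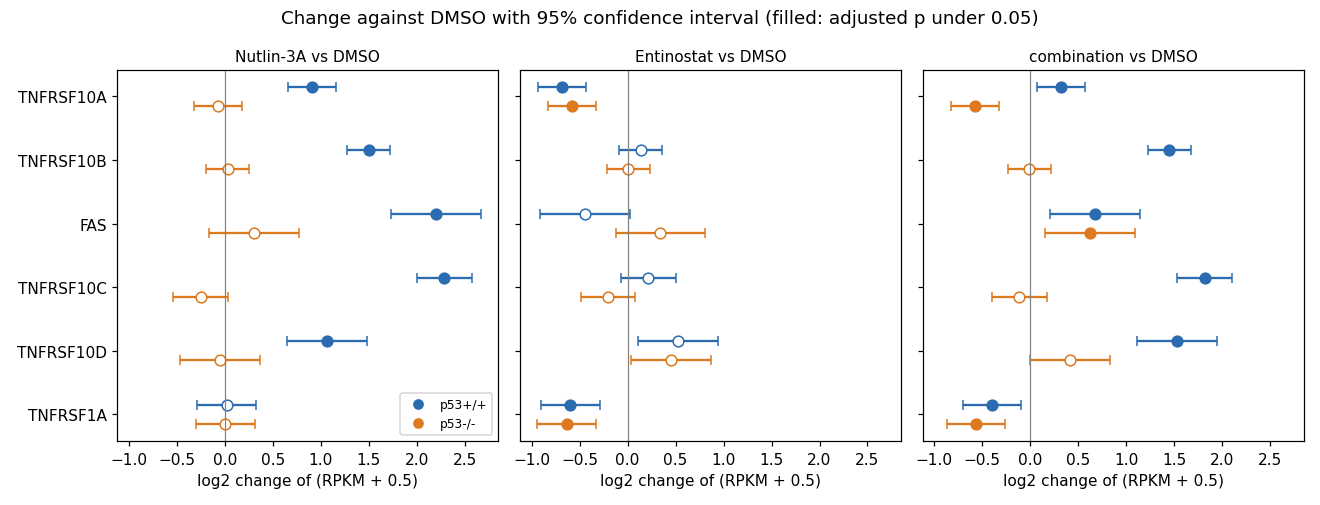
log2 change of RPKM + 0.5 against DMSO for each receptor gene with Nutlin-3A, Entinostat or the combination, with 95% confidence intervals from limma; blue is p53+/+, orange is p53-/-, and filled points passed an adjusted p under 0.05. With Nutlin-3A, 5 blue points and no orange point are filled, whereas with Entinostat TNFRSF10A and TNFRSF1A are filled and to the left in both genotypes. The fit shown had no replicate block. With the block, TNFRSF10D also passed with Entinostat in both genotypes and with the combination in p53-/- cells.

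TNFRSF10B, which encodes DR5, rose 2.85-fold with Nutlin-3A and 2.75-fold with the combination in p53+/+ cells. Its replicates held 36.4 and 32.7 RPKM with DMSO, 103 and 94.3 with Nutlin-3A, 40.2 and 35.8 with Entinostat and 101 and 89.7 with the combination. The p53-/- libraries held, in the same order, 30.3 and 29.3, 30.6 and 30.3, 32.0 and 28.0 and 31.5 and 27.8 RPKM. The p53+/+ libraries with Nutlin-3A, alone or combined, thus lay above all other libraries, and the p53-/- groups overlapped one another. The log2 changes in p53+/+ cells were 1.50 ± 0.10 (SE; adjusted p = 2.97e-06) with Nutlin-3A and 1.45 ± 0.10 (SE; adjusted p = 6.12e-06) with the combination, and the combination differed from Nutlin-3A alone by -0.05 (95% interval -0.28 to 0.17; adjusted p = 0.716). Against Entinostat alone the combination was 1.31 ± 0.10 (SE; adjusted p = 2.28e-05) higher on the log2 scale. Entinostat alone gave 0.13 (95% interval -0.09 to 0.36; adjusted p = 0.356) in p53+/+ cells and 0.01 (95% interval -0.22 to 0.23) in p53-/- cells. The response to Nutlin-3A was larger in p53+/+ than in p53-/- cells by 1.47 ± 0.15 (SE; adjusted p = 1.56e-04), and that to the combination by 1.46 ± 0.15 (SE; adjusted p = 6.02e-04). Its rank among all tested genes by mean RPKM moved from percentile 85.0 with DMSO to 95.8 with Nutlin-3A. Replicate 1 was higher than replicate 2 in 8 of 8 groups for TNFRSF10B, by a ratio of 1.01 to 1.14.

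TNFRSF10A, which encodes DR4, rose with Nutlin-3A and fell with Entinostat in p53+/+ cells. Its p53+/+ replicates held 17.9 and 18.6 RPKM with DMSO, 37.8 and 31.7 with Nutlin-3A, 10.7 and 11.6 with Entinostat and 23.2 and 22.6 with the combination. Without p53, these groups held 20.4 and 20.9, 20.5 and 18.8, 12.2 and 15.2 and 12.97 and 14.4 RPKM. No 2 of the p53+/+ groups overlapped, and the combination lay between DMSO and Nutlin-3A alone. The log2 change was 0.91 ± 0.11 (SE; adjusted p = 1.98e-04) with Nutlin-3A, 1.91-fold by mean RPKM, and -0.69 ± 0.11 (SE; adjusted p = 0.00196) with Entinostat, 1.63-fold lower. In p53-/- cells Entinostat gave a change of -0.58 ± 0.11 (SE; adjusted p = 0.00416) and the combination one of -0.58 ± 0.11 (SE; adjusted p = 0.00363); without p53-/- Entinostat replicate 1 the former had an adjusted p of 0.0594. In bulk samples such as these, a lower level in each cell and fewer cells that express the gene cannot be told apart.

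The combination in p53+/+ cells left TNFRSF10A at 1.26-fold its DMSO level, a log2 change of 0.32 ± 0.11 (SE; adjusted p = 0.0335), and 1.52-fold below Nutlin-3A alone, a change of -0.59 ± 0.11 (SE; adjusted p = 0.00315). The change against DMSO stayed close to that size, at 0.29 to 0.35, when any 1 of the 4 libraries compared was left out, but its adjusted p was then 0.0655 to 0.130, and 0.0525 when only those groups were fitted; after quantile normalization the change was 0.53 (adjusted p = 0.00284). Against Entinostat alone the combination was 1.01 ± 0.11 (SE; adjusted p = 2.25e-04) higher on the log2 scale. Response differences between the genotypes were 0.98 ± 0.16 (SE; adjusted p = 0.00336) for Nutlin-3A and 0.90 ± 0.16 (SE; adjusted p = 0.0106) for the combination, and the latter had an adjusted p of 0.0506 without p53-/- DMSO replicate 2. TNFRSF10A with DMSO did not differ between genotypes by the test, at 0.18 (95% interval -0.07 to 0.42).

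FAS rose with Nutlin-3A in p53+/+ cells and was much less raised when Entinostat was added. Its p53+/+ replicates held 4.43 and 3.15 RPKM with DMSO, 20.8 and 17.3 with Nutlin-3A, 2.67 and 2.55 with Entinostat and 4.86 and 8.05 with the combination. Its levels in the p53-/- groups, in that order, were 1.47 and 1.06, 1.88 and 1.46, 1.57 and 1.89 and 2.19 and 2.21 RPKM. The Nutlin-3A libraries of p53+/+ cells lay above every other library, and the replicates of the p53+/+ combination differed by the widest ratio of any group, replicate 1 at 0.604 times replicate 2. Nutlin-3A raised FAS 5.03-fold in p53+/+ cells, a log2 change of 2.20 ± 0.21 (SE; adjusted p = 3.93e-05), and in p53-/- cells the change was 0.30 (95% interval -0.17 to 0.77; adjusted p = 0.956). The difference between these responses was 1.90 ± 0.30 (SE; adjusted p = 0.00298). Its percentile among tested genes in p53+/+ cells went from 31.6 with DMSO to 74.5 with Nutlin-3A and 45.1 with the combination.

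The combination held FAS 2.95-fold below Nutlin-3A alone in p53+/+ cells, a log2 change of -1.52 ± 0.21 (SE; adjusted p = 7.48e-04), whereas TNFRSF10B differed by -0.05 in that comparison. Against Entinostat alone the combination was 1.12 ± 0.21 (SE; adjusted p = 0.00460) higher on the log2 scale. Against DMSO it gave 0.67 ± 0.21 (SE; adjusted p = 0.0209), which became 0.34 (adjusted p = 0.195) without combination replicate 2 and 0.46 (adjusted p = 0.179) without DMSO replicate 2, and the adjusted p was 0.0833 with only those groups fitted. The same comparison in p53-/- cells gave 0.62 ± 0.21 (SE; adjusted p = 0.0447), with adjusted p values of 0.0556 to 0.251 when any 1 of its 4 libraries was left out, for changes of 0.45 to 0.79. After quantile normalization this change was 0.33 (adjusted p = 0.278), and the adjusted p was 0.0934 with no filter and 0.0648 with 1 added to RPKM. The combination response differed between genotypes by 0.05 (95% interval -0.61 to 0.72; adjusted p = 0.930). The departure from additivity in p53+/+ cells was -1.08 (95% interval -1.74 to -0.41), with an unadjusted p of 0.00403 and an adjusted p of 0.698. Entinostat alone gave -0.45 (95% interval -0.92 to 0.02; adjusted p = 0.140) in p53+/+ cells and 0.34 (95% interval -0.13 to 0.81; adjusted p = 0.258) in p53-/- cells.

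FAS also differed between genotypes without Nutlin-3A. With DMSO it was 2.99-fold lower in p53-/- than in p53+/+ cells, a log2 difference of -1.27 ± 0.21 (SE; adjusted p = 0.00424), where 4.69% of all genes were called and 3.13% were lower; TNFRSF10C was the other of the 2 receptors called. The FAS difference had an adjusted p of 0.0658 without p53+/+ DMSO replicate 1 and 0.0637 without p53-/- DMSO replicate 2. With Nutlin-3A it was 11.4-fold lower in p53-/- cells, a difference of -3.17 ± 0.21 (SE; adjusted p = 7.90e-07), and with the combination 2.94-fold lower. With Nutlin-3A 5 of the 6 receptors were lower in p53-/- cells, where 34.4% of all genes were called and 16.9% were lower, and with the combination also 5, where 36.3% were called and 15.9% were lower. The replicate block called TNFRSF1A lower as well with the combination (limma adjusted p = 0.0157), where 52.9% of all genes were called. With Entinostat only TNFRSF10C of the 6 was called, where 3.76% of all genes were called and 2.4% were lower. In limma with replicate number as a block TNFRSF10B was called too (log2 -0.34, adjusted p = 0.00453 against 0.107). TNFRSF10C is in every one of these genotype counts, although it passed the minimum for testing only through p53+/+ libraries with Nutlin-3A or the combination. Its calls describe the difference and are not separate support for it.

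The 250 bases before annotated starts of FAS and of TNFRSF1A are printed below. Nutlin-3A raised FAS in p53+/+ cells, whereas TNFRSF1A did not pass that test. RefSeq promoter windows on GRCh38.p14 matched 2 of the 6 genes, with 4 windows; the deposited values were made on hg19, and these coordinates are used for sequence alone. Capitals mark the GC box (GGGCGG) and matches to the consensus p53 half-site; all motifs were searched on both strands, and no 2 of the printed matches overlap. The first 2 lines are FAS starts on the plus strand, chr10:88990548-88990797 and chr10:88991181-88991430, and the last is TNFRSF1A on the minus strand, chr12:6342077-6342326.
FAS, first start: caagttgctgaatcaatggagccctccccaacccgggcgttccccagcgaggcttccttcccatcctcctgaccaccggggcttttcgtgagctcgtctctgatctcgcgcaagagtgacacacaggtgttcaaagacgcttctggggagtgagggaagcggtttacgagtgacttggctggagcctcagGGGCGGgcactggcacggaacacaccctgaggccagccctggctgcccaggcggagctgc
FAS, downstream start: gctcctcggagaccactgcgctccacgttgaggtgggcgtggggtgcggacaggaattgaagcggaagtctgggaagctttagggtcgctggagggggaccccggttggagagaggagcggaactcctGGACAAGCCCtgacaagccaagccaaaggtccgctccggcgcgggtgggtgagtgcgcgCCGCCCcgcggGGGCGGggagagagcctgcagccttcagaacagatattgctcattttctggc
TNFRSF1A: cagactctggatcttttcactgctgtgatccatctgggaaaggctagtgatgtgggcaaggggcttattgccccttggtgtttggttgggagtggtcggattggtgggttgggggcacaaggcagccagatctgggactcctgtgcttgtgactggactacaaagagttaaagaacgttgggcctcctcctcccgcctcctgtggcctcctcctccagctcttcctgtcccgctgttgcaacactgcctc

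The downstream FAS start had 1 p53 half-site at -122 and 2 GC boxes, the first at -63, counted from the start site, and the first FAS start had 1 GC box at -60 and an AP-1 site (TGANTCA) at -242. The TNFRSF1A window held none of these and had a CCAAT box (CCAAT) at -151. Over 35114 promoter windows of 300 bases, 250 before and 50 after a start, 44.95% held a GC box, 6.63% a p53 half-site, 7.709% an AP-1 site and 34.62% a CCAAT box. A match describes letters in the window and does not show binding. A full p53 site was counted only where 2 half-sites each matched the consensus at every base. Such a site stood in 10 windows (0.02848%) and in none of the 4 windows of FAS and TNFRSF1A. Full sites with a mismatch were not searched for, including any formed by the marked FAS half-site and the bases next to it. The count therefore does not show that FAS lacks a full site.

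FAS lies head to head with ACTA2, which encodes smooth muscle actin, on chromosome 10: the genes overlap by 758 bases and share 0 exon bases in the GENCODE annotation of GRCh38. The library kit keeps strand, but the labels do not state if the counting used it. ACTA2 held 1.43 and 1.71 RPKM with DMSO, 13.5 and 12.4 with Nutlin-3A, 2.21 and 2.19 with Entinostat and 15.3 and 11.6 with the combination in p53+/+ cells. It thus rose with Nutlin-3A like FAS, by 2.71 ± 0.27 (SE; adjusted p = 4.17e-05) on the log2 scale, but stayed as high with the combination, at 2.74 ± 0.27 (SE; adjusted p = 3.08e-05), and the combination differed from Nutlin-3A by 0.04 (adjusted p = 0.930) where FAS differed by -1.52. ACTA2 in p53-/- cells rose with the combination by 1.10 ± 0.27 (SE; adjusted p = 0.00979) from 0.432 and 0.289 RPKM to 1.79 and 0.969 RPKM. FAS-AS1, an antisense transcript of FAS, did not exceed 0.0511 RPKM in any library and was not tested.

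**Figure D3:**
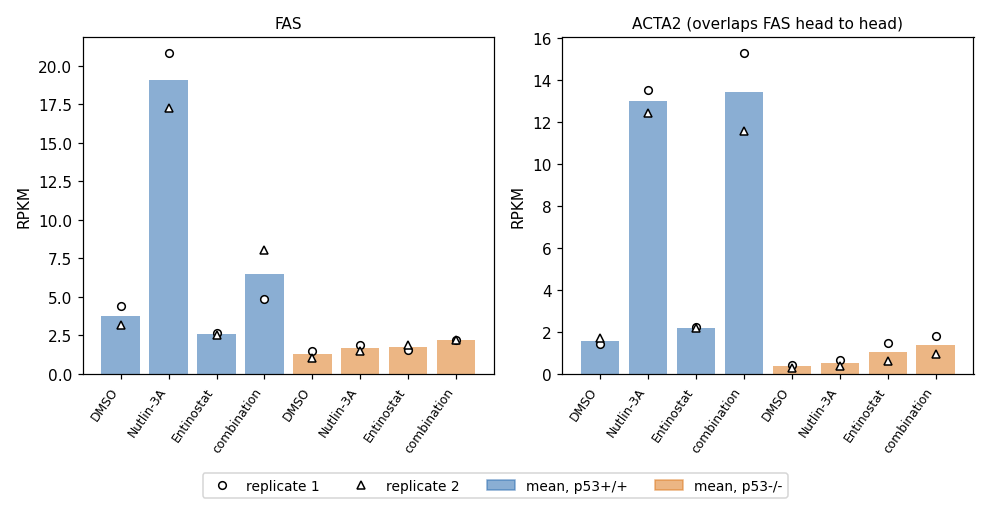
RPKM of FAS (left) and of its head-to-head neighbour ACTA2 (right) in the 8 groups; bars are means of 2 replicates and symbols are the replicates, with p53+/+ in blue and p53-/- in orange. In p53+/+ cells FAS with the combination lay at 4.86 and 8.05 RPKM, under its 20.8 and 17.3 with Nutlin-3A, while ACTA2 was about as high in both groups.

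Of the decoys, TNFRSF10D was abundant and TNFRSF10C scarce, and both rose with Nutlin-3A in p53+/+ cells. TNFRSF10D held 18.2 and 15.7 RPKM with DMSO, 39.7 and 32.4 with Nutlin-3A, 28.0 and 21.5 with Entinostat and 56.9 and 43.3 with the combination in p53+/+ cells. Its p53-/- replicates held 20.5 and 17.6, 19.4 and 17.2, 29.8 and 22.9 and 29.1 and 22.1 RPKM. Its highest libraries were those of the p53+/+ combination, and in both genotypes each group with Entinostat lay above its counterpart without it. Replicate 1 exceeded replicate 2 in 8 of 8 groups, by a ratio of 1.13 to 1.32, so the spread between replicates was wide and ran one way. Nutlin-3A raised TNFRSF10D 2.12-fold in p53+/+ cells, a log2 change of 1.06 ± 0.19 (SE; adjusted p = 0.00235), and the combination 2.95-fold, a change of 1.53 ± 0.19 (SE; adjusted p = 1.11e-04).

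With Entinostat alone TNFRSF10D was 1.46-fold its DMSO level in p53+/+ cells, a log2 value of 0.52 (adjusted p = 0.0594), and 1.38-fold in p53-/- cells, 0.45 (adjusted p = 0.0979). With replicate number as a block, which takes out the difference between replicates 1 and 2, the same values had adjusted p of 1.93e-04 and 5.34e-04. The p53+/+ value was also called with only those groups fitted (0.52, adjusted p = 0.0381), after quantile normalization (0.60, adjusted p = 0.0354) and without Entinostat replicate 2 (0.71, adjusted p = 0.0422). For the combination in p53-/- cells the value was 0.41, with an adjusted p of 0.119 without the block and 8.48e-04 with it, and for the combination against Nutlin-3A in p53+/+ cells 0.47, with 0.0764 and 3.13e-04. The latter had an adjusted p of 0.0359 after quantile normalization and 0.0346 without combination replicate 2. The combination exceeded Entinostat alone in p53+/+ cells by 1.00 ± 0.19 (SE; adjusted p = 0.00452), an adjusted p that was 0.0549 without combination replicate 1 and 0.0572 without Entinostat replicate 2. Its response differed between genotypes by 1.11 ± 0.27 (SE; adjusted p = 0.0293) for Nutlin-3A and by 1.11 ± 0.27 (SE; adjusted p = 0.0350) for the combination. Leaving out any of 7 of the 8 libraries gave adjusted p values of 0.0509 to 0.128 for the first, all but Nutlin-3A replicate 2 of p53+/+ cells, and leaving out any of 6 gave 0.0696 to 0.147 for the second, all but replicate 1 of the p53-/- and replicate 2 of the p53+/+ combination. With each of the 8 libraries left out in turn, the differences themselves ran from 0.97 to 1.26 and from 0.92 to 1.31, and with no filter on low genes their adjusted p values were 0.0719 and 0.0757.

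TNFRSF10C held 0.751 and 0.711 RPKM with DMSO, 5.83 and 5.18 with Nutlin-3A, 0.884 and 0.971 with Entinostat and 4.06 and 3.62 with the combination in p53+/+ cells. Among the p53-/- libraries none exceeded 0.119 RPKM, 2 libraries were listed at exactly 0, and 2 more held values above 0 that are 0 at any usual precision, while the lowest p53+/+ library held 0.711 RPKM. The p53+/+ and p53-/- libraries therefore did not overlap under any treatment, and no fold against p53-/- cells is given. Nutlin-3A raised TNFRSF10C 7.53-fold in p53+/+ cells, a log2 change of 2.28 ± 0.13 (SE; adjusted p = 1.03e-06), and the combination 5.25-fold, a change of 1.82 ± 0.13 (SE; adjusted p = 6.12e-06). TNFRSF10C was tested only because it was high in these p53+/+ groups, with a mean of 0.304 RPKM without them. Its p-values describe the rise and are not separate support for it. The combination was 1.43-fold below Nutlin-3A alone, at -0.47 ± 0.13 (SE; adjusted p = 0.0177); the adjusted p was 0.0516, 0.0782 and 0.118 without combination replicate 1, combination replicate 2 or Nutlin-3A replicate 1, and 0.217 with 0.1 added to RPKM in place of 0.5. The Nutlin-3A response was larger in p53+/+ than in p53-/- cells by 2.54 ± 0.19 (SE; adjusted p = 3.26e-05) and the combination response by 1.93 ± 0.19 (SE; adjusted p = 5.47e-04), on a scale that depends on the added 0.5 where RPKM is near 0. TNFRSF10C differed between genotypes in every treatment, by -1.05 (adjusted p = 4.90e-04) with DMSO and -1.47 (adjusted p = 6.00e-05) with Entinostat on the log2 scale. The TRAIL receptor genes are related neighbours on chromosome 8, and the labels do not state how the authors' counting divided reads that fit more than one of them.

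The decoys' share of the summed RPKM of the 4 TRAIL receptors was higher in the groups with Entinostat. It was 25.9% and 24.2% with DMSO, 24.4% and 23.0% with Nutlin-3A, 36.2% and 32.2% with Entinostat and 33.0% and 29.5% with the combination in p53+/+ cells. The p53-/- shares were 28.8% and 26.1%, 27.5% and 26.0%, 40.2% and 34.7%, and 39.7% and 34.4% in the same order. All 8 libraries with Entinostat, at 29.5% to 40.2%, lay above all 8 without it, at 23.0% to 28.8%. The sum itself was 159 to 186 RPKM in the p53+/+ libraries with Nutlin-3A or the combination and 64.4 to 79.9 RPKM in the other 12, and the decoy share with Nutlin-3A overlapped that with DMSO in both genotypes. TNFRSF10C made up 12.8% and 13.8% of the decoy RPKM with Nutlin-3A in p53+/+ cells, against 3.95% and 4.33% with DMSO. Within the signalling pair, TNFRSF10B held on average 1.90 times the RPKM of TNFRSF10A with DMSO in p53+/+ cells, 2.85 times with Nutlin-3A, 3.42 with Entinostat and 4.15 with the combination, against 1.44, 1.55, 2.23 and 2.18 times in p53-/- cells. No test was made on these shares and ratios, which were formed over receptors chosen with results known.

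**Figure D4:**
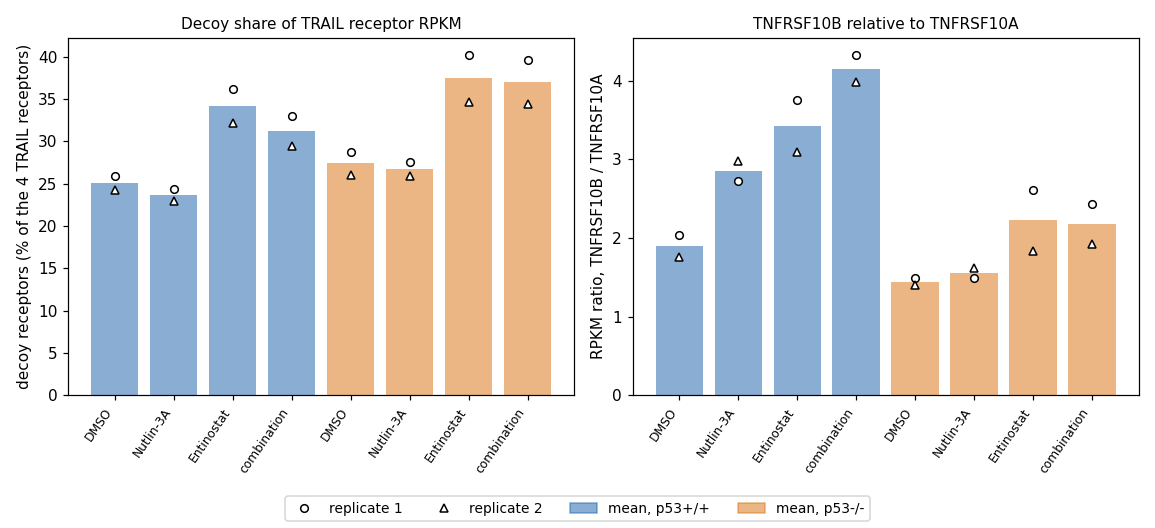
Left, decoy receptors (TNFRSF10C and TNFRSF10D) as a percentage of the summed RPKM of the 4 TRAIL receptor genes; right, the RPKM ratio of TNFRSF10B to TNFRSF10A. Bars are means of 2 replicates in each of the 8 groups and symbols are the replicates; the libraries with Entinostat all lie at 29.5% or more in the left panel.

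Over the same libraries other signs moved with Entinostat, and their part in the shares was not tested. The summed RPKM of the 8 other-cell-type markers in the table was 10.3 to 13.5 with Entinostat and 5.49 to 7.63 without it, from CD68 (5.41 to 7.33 against 3.40 to 5.03 RPKM) and COL1A1 (3.60 to 5.80 against 2.00 to 2.66 RPKM), and 5 of the 8 stayed under 0.2 RPKM in every library. The epithelial markers summed to 2312 to 4641 RPKM with Entinostat and 1717 to 2786 RPKM without it.

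TNFRSF1A was lower with Entinostat in both genotypes and did not pass the test with Nutlin-3A. Its p53+/+ replicates held 38.7 and 34.0 RPKM with DMSO, 39.3 and 34.2 with Nutlin-3A, 22.6 and 25.1 with Entinostat and 27.8 and 26.9 with the combination. The corresponding p53-/- values were 35.0 and 28.3, 36.9 and 27.1, 20.3 and 20.0 and 21.0 and 21.2 RPKM. In each genotype the groups with Entinostat lay below those without it and did not overlap them. Nutlin-3A gave a log2 value of 0.02 (95% interval -0.29 to 0.32; adjusted p = 0.959) in p53+/+ cells and 0.00 (95% interval -0.30 to 0.31) in p53-/- cells. Entinostat lowered TNFRSF1A by a factor of 1.53 in p53+/+ cells, a change of -0.60 ± 0.14 (SE; adjusted p = 0.00975), and of 1.58 in p53-/- cells, -0.64 ± 0.14 (SE; adjusted p = 0.00718); the interaction was 0.04 (95% interval -0.40 to 0.47).

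With 1 library left out these decreases of TNFRSF1A kept their direction, and some no longer passed the test. In p53+/+ cells the change with Entinostat was -0.52 (adjusted p = 0.0939) without Entinostat replicate 1 and -0.51 (adjusted p = 0.0732) without DMSO replicate 1. Among p53-/- cells it was -0.65 (adjusted p = 0.0539) and -0.48 (adjusted p = 0.0637) without the corresponding libraries. The combination changed TNFRSF1A by -0.40 ± 0.14 (SE; adjusted p = 0.0326) in p53+/+ cells. That change was -0.19 (adjusted p = 0.246) after quantile normalization and -0.31 (adjusted p = 0.179) without DMSO replicate 1, and its adjusted p was 0.0865 and 0.0964 without combination replicate 1 or 2 and 0.0562 with no filter. For p53-/- cells the combination gave -0.57 ± 0.14 (SE; adjusted p = 0.0105), which was -0.42 (adjusted p = 0.0933) without DMSO replicate 1 and -0.56 (adjusted p = 0.0711) without combination replicate 1. Against Nutlin-3A alone in p53+/+ cells the combination gave -0.42 ± 0.14 (SE; adjusted p = 0.0383). Leaving out any of the 4 libraries gave -0.51 to -0.32, with adjusted p values of 0.0543 to 0.212, and the adjusted p was 0.0641 with no filter and 0.0784 after quantile normalization. With the combination TNFRSF1A differed between genotypes by -0.37, an adjusted p of 0.0590 without the replicate block and 0.0157 with it; it was also called with median-of-ratios scaling (adjusted p = 0.0361) and quantile normalization (adjusted p = 0.0132).

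Of 12 other TNF-family receptors and decoys, 7 were tested, and in p53+/+ cells 2 rose and 1 fell with Entinostat, where 27.5% of all tested genes were called. With Nutlin-3A in p53+/+ cells limma called 0 of the 7, where 17.4% of all tested genes were called. At an unadjusted p under 0.05 it counted 1 of the 7 and 3739 of the 12466 tested genes. With so few genes, 0 of 7 does not set these receptors apart from that share. With Entinostat LTBR, the lymphotoxin beta receptor, fell from 33.6 and 32.1 RPKM to 8.37 and 12.4 RPKM, a change of -1.64 ± 0.21 (SE; adjusted p = 7.29e-04), and in p53-/- cells by -1.66 ± 0.21 (SE; adjusted p = 6.02e-04). NGFR, the low-affinity neurotrophin receptor with a death domain, rose with Entinostat in p53+/+ cells by 2.48 ± 0.59 (SE; adjusted p = 0.00991) but its Entinostat replicates held 27.9 and 11.1 RPKM. TNFRSF6B, a soluble decoy for FAS ligand, was lower in p53-/- than in p53+/+ cells by -1.83 ± 0.45 (SE; adjusted p = 0.0376) with DMSO and -3.42 ± 0.45 (SE; adjusted p = 1.37e-04) with Nutlin-3A, from 51.8 and 40.9 RPKM to 5.42 and 2.67 RPKM. TNFRSF21 (DR6) was lower with DMSO as well, by -0.67 ± 0.11 (SE; adjusted p = 0.00289). Of 6 ligand genes listed, only TNFSF12 was tested; TNFSF10 (TRAIL), TNF, LTA and TNFSF15 lay below the minimum, and the FAS ligand gene was not analysed here.

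Among the adaptors and initiator caspases, 8 were tested, of which 1 rose and 2 fell with Nutlin-3A in p53+/+ cells, where 17.4% of all tested genes were called. CFLAR rose from 1.94 and 2.07 RPKM to 4.14 and 3.71 RPKM, by 0.82 ± 0.17 (SE; adjusted p = 0.00519), while TRAF2 and DAXX fell, by -0.65 and -0.43 on the log2 scale. With Entinostat 4 of the 8 fell and none rose in p53+/+ cells, where 27.5% of all genes were called and 12.4% were lower, among them CFLAR with -0.83 ± 0.17 (SE; adjusted p = 0.00480), and with the combination CFLAR lay at 1.28 and 1.87 RPKM, a log2 value of -1.11 (adjusted p = 9.52e-04) against Nutlin-3A alone. CFLAR was thus lower with the combination than with Nutlin-3A, as were TNFRSF10A, TNFRSF10C, FAS and TNFRSF1A. In that comparison 34.7% of all genes were called and 18.1% were lower. With only the groups compared fitted, TNFRSF10C and TNFRSF1A fell short (limma adjusted p = 0.0685 and 0.0578), where 18.5% of all genes were called. With all groups fitted, TNFRSF10B and TNFRSF10D did not pass the test against Nutlin-3A in either direction, but with the replicate block TNFRSF10D was called higher. Of the 12 tested genes of the TNF receptor 1 complex, BIRC3, an inhibitor of apoptosis, rose in all of the p53+/+ treatments, by 0.76 (adjusted p = 0.00199), 1.09 (adjusted p = 5.87e-04) and 1.70 (adjusted p = 8.24e-06). Entinostat raised 4 of the 12 and lowered 1 in p53+/+ cells and raised 3 and lowered 2 in p53-/- cells, where 27.5% and 28.2% of all genes were called, and with Nutlin-3A BIRC3 was the 1 of the 12 called. Downstream of caspase-8, 3 of 10 tested genes rose with Nutlin-3A in p53+/+ cells and none fell, where 7.89% of all genes were higher: APAF1 by 1.41 (adjusted p = 9.74e-06), BAX by 1.22 (adjusted p = 1.05e-05) and BAK1 by 0.43 (adjusted p = 0.0127).

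The genes whose log2 values followed each receptor most closely over the 16 libraries, which fall into 8 groups, were described by Pearson's r. For TNFRSF10B they were KDM4B (r = 0.992), FDXR (0.988) and DRAM1 (0.988), for TNFRSF10C TTYH3 (0.994), ABCB6 (0.989) and ANXA4 (0.988), and for FAS CMBL (0.972), STX6 (0.971) and TAP1 (0.971). For TNFRSF10A they were MVP (0.970), AEN (0.969) and SLC25A15 (0.965), for TNFRSF10D DUSP14 (0.981), PGF (0.972) and SEMA3F (0.970), and for TNFRSF1A TEN1 (0.967), ZNF76 (0.966) and SLC39A7 (0.954). Among the receptors themselves r ran from 0.960 for TNFRSF10B with TNFRSF10C down to -0.12 for TNFRSF10D with TNFRSF1A. The points share the 8 groups, so these r describe shared patterns of groups and have no p.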

How the data were processed

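Polyadenylated RNA of the 16 HCT116 libraries was measured with a stranded kit, per the labels. The authors deposited RPKM per gene for 20612 genes. The submitters' processing notes name Bowtie2, Partek and hg19; no source used here gives versions, roles, or the use of strand in counting. Columns were matched to samples by title. Tests used log2(RPKM + 0.5), which understates changes of low genes, so every fold is a quotient of group means in RPKM. The 12466 genes (60.5%) averaging 0.5 RPKM or more entered limma 3.58.1 (R 4.3.3), with 8 group means, an intensity trend, 8 residual and 4.09 prior degrees of freedom. Two-sided p-values were adjusted by Benjamini-Hochberg over all tested genes in each of the 16 comparisons and called at under 0.05. The script was tested on simulated data. Libraries held 45902800 to 55507300 alignments; RPKM carry no counts, so no counting interval is given.

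The receptors, the lists and the rule for named genes were chosen with earlier results of these data known. Besides the 6 receptors, the rule names CDKN1A and MDM2 as checks, up to 4 called genes of each pathway list, the 3 genes with the highest r to each receptor among those averaging 1 RPKM or more, and neighbours that could share reads. The level of 1 further gene is not reported here. The gap between replicate 1 and replicate 2 was correlated over genes for each of the 28 pairs of groups (r from 0.27 to 0.78, median 0.43), so the numbers pair the samples, and the replicate block was fitted as an alternative. Other alternatives were added constants of 0.1 and 1, no filter, a minimum mean of 1, median-of-ratios and quantile scaling, only the groups compared, no trend, and each library left out. No 2 libraries were identical.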

Additional observations from a re-analysis of the deposited data

Results flagged for a closer look

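The response to Nutlin-3A differed between genotypes by limma's interaction test for 5 of the 6 receptor genes, each being larger in p53+/+ than in p53-/- cells. Of all tested genes 6.78% were called, 3.49% in this direction. The log2 difference in response was 0.98 for TNFRSF10A, 1.47 for TNFRSF10B, 2.54 for TNFRSF10C, 1.11 for TNFRSF10D and 1.90 for FAS. The response to the combination differed for 4 of them, with 0.90 for TNFRSF10A, 1.46 for TNFRSF10B, 1.93 for TNFRSF10C and 1.11 for TNFRSF10D. For it 5.78% of all tested genes were called, 1.97% in this direction. The TNFRSF10D calls were not stable: with no filter on low genes limma gave adjusted p values of 0.0719 for Nutlin-3A and 0.0757 for the combination. TNFRSF10C had values at or near 0 in all p53-/- libraries, so its differences depend on the constant of 0.5 added to RPKM. It was also tested only because it was high in the p53+/+ groups with Nutlin-3A or the combination.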

How the results depend on the processing

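Of the called log2 changes of the 6 receptors, 424 values under settings other than a left-out library kept direction and side of the threshold and 17 fell short of it; with 1 library left out 187 kept it and 45 fell short, and none changed direction. Of the uncalled changes, 11 values under other settings and 3 with 1 library left out passed the threshold; those outside the replicate block are the ones the report gives for TNFRSF10D and TNFRSF1A, and TNFRSF1A between genotypes with Nutlin-3A (-0.43, adjusted p = 0.0383, without p53-/- Nutlin-3A replicate 1). With only the groups compared fitted, the combination had 2 receptors called against Nutlin-3A and 3 against Entinostat in p53+/+ cells, in place of 4 and 5, while the share of all genes called went from 34.7% to 18.5% and from 14.8% to 1.87%; TNFRSF10C and TNFRSF1A lost the first and TNFRSF10D and FAS the second. TNFRSF10A and FAS for the combination against DMSO in p53+/+ cells and TNFRSF10D in the combination interaction lost theirs as well, and fewer libraries estimated the spread. The replicate block raised the count for p53-/- against p53+/+ with Entinostat from 1 to 2, while the share of all genes called went from 3.76% to 13.2%, and called TNFRSF10D and TNFRSF1A where the report says so; it changed no other call of a receptor. With 1 library left out, the receptors called, with the share of all genes called in the same fits, ran from 1 to 3 (6.25% to 22.4%) for Entinostat and 3 to 4 (33.2% to 50.6%) for the combination against DMSO in p53+/+ cells, 2 to 3 (13.6% to 38.6%) for the combination against Nutlin-3A, 0 to 2 (6.72% to 24%) and 1 to 2 (8.83% to 29.1%) for Entinostat and the combination in p53-/- cells, 1 to 2 (1.92% to 2.74%) for genotype with DMSO, and 2 to 4 (1.32% to 15.3%) for the combination interaction; fewer libraries enter each such fit.

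No value that changed sign was called, before or after the change. With quantile normalization TNFRSF10C with Entinostat in p53+/+ cells was -0.057 and TNFRSF10B with the combination in p53-/- cells 0.10; with median-of-ratios scaling TNFRSF10B with Entinostat in p53-/- cells was -0.010; with 0.1 added, the FAS combination interaction was -0.037; the cause was not tested. With 1 library left out, TNFRSF1A ran from -0.083 to 0.11 and -0.22 to 0.22 with Nutlin-3A in p53+/+ and p53-/- cells, -0.43 to 0.0096 between genotypes with Nutlin-3A, and -0.21 to 0.23 and -0.11 to 0.19 in the Nutlin-3A and Entinostat interactions. TNFRSF10B ran from -0.13 to 0.029 for the combination against Nutlin-3A, and in p53-/- cells from -0.089 to 0.10 with Entinostat and -0.097 to 0.078 with the combination. TNFRSF10D ran from -0.16 to 0.053 with Nutlin-3A in p53-/- cells, -0.10 to 0.27 between genotypes with Entinostat, -0.11 to 0.26 in the Entinostat interaction and -0.25 to 0.14 for additivity. TNFRSF10A ran from -0.26 to 0.047 in the Entinostat interaction and -0.026 to 0.23 for additivity, TNFRSF10C from -0.25 to 0.020 with the combination in p53-/- cells, and FAS from -0.28 to 0.39 in the combination interaction. With 2 libraries a group and no read counts, precision rests on the spread pooled over groups.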
